A study of Mus musculus with 9 samples.

Results

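The cauda epididymis was compared with the corpus epididymis across all genes with enough counts to test, which were 14168 of the 24059 genes listed. The comparison used 6 of the 9 libraries of the series, 3 of cauda and 3 of corpus. The 3 caput libraries helped to estimate the spread between replicates, and they also entered the count filter and the scaling. Genes were kept when their counts passed a fixed minimum in the fit, so a gene present in 1 segment alone, caput included, could pass. With the 6 libraries alone, fewer members of some lists were tested, as given below. Of the genes tested, 2661 were higher in cauda and 2891 were lower. The cauda libraries held more smooth muscle and sperm transcripts. The summed level of general epithelial markers was close in both segments, while genes for secreted epithelial proteins changed widely in both directions, in places between neighbouring genes.

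The epididymis is a coiled duct in which sperm leaving the testis mature, become motile and are stored. Its principal cells secrete proteins, among them beta-defensins, protease inhibitors and cysteine-rich secretory proteins, that bind or bathe the sperm, and clear cells acidify the lumen. The corpus is the middle segment. The cauda is the wide distal segment where sperm are held until ejaculation, and its wall carries a thicker coat of smooth muscle.

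Both groups came from wild type C57BL/6J mice of 9 months, with no treatment given in the labels. The cauda group has replicates 1 to 3 and so does the corpus group. The labels do not say whether each library is a separate mouse or a pool, so p-values measure only the spread between these libraries. Total counts were 5902972, 5095298 and 6072094 in cauda and 2600061, 6076479 and 5353421 in corpus. On the log2 scale of CPM, each library's counts scaled to a common total, the cauda libraries correlated with each other at 0.984 to 0.989, the corpus libraries at 0.978 to 0.982, and cauda with corpus at 0.900 to 0.921, as a description across genes. Crisp1 and Pax2, genes of the epididymal epithelium, were present in every library. The counting step's use of strand is not given in the sources used here. Named genes that overlap a gene on the other strand, which are Akr1b7, Alas2, Atp6v1c2, Cd52, Ctgf, Des, Dnah9, Fn1, Gata3, Gm17252, Gm17365, Hmgcs1, Hoxa11, Hoxd3, Hspa1a, Irf1, Krt7, Krt8, Ncam1, Notch3, Pate2, Pate4, Pax8, Pln, Svs1, Tg, Wfdc6b and Wfdc8, therefore cannot be told apart from their partner's reads. In whole tissue, fewer cells of a type and less RNA per cell cannot be told apart.

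Changes are given as log2 of cauda over corpus with the standard error (SE) of the fit, and a gene was called when its Benjamini-Hochberg adjusted p was under 0.05 in edgeR's quasi-likelihood test. Levels with a ± are means with the SD over the 3 libraries of a segment. Calls in either direction made up 39.2% of all tested genes, 18.8% higher and 20.4% lower in cauda. Counts of list members given below are to be read beside these shares. At 2-fold or more, 1032 genes were higher (7.28%) and 912 were lower (6.44%). The 1032 genes took 11% to 12.3% of the counts of the cauda libraries and 3.61% to 3.79% of those of the corpus libraries. The 912 genes took 2.4% to 2.61% of the counts in cauda and 8.8% to 9.06% in corpus. The share of genes called grew with level, and was 6.59% below 1 CPM and 57.1% above 100 CPM. Scaling the libraries so that a list of 24 pan-epithelial genes had the same level in each moved the median log2 change of all tested genes to 0.182, against -0.00641 before it. The calls were then 4307 higher and 1724 lower, so that 71.4% of calls were higher in cauda, against 47.9% before. The sign of small changes therefore depends on the scaling.

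**Figure D1:**
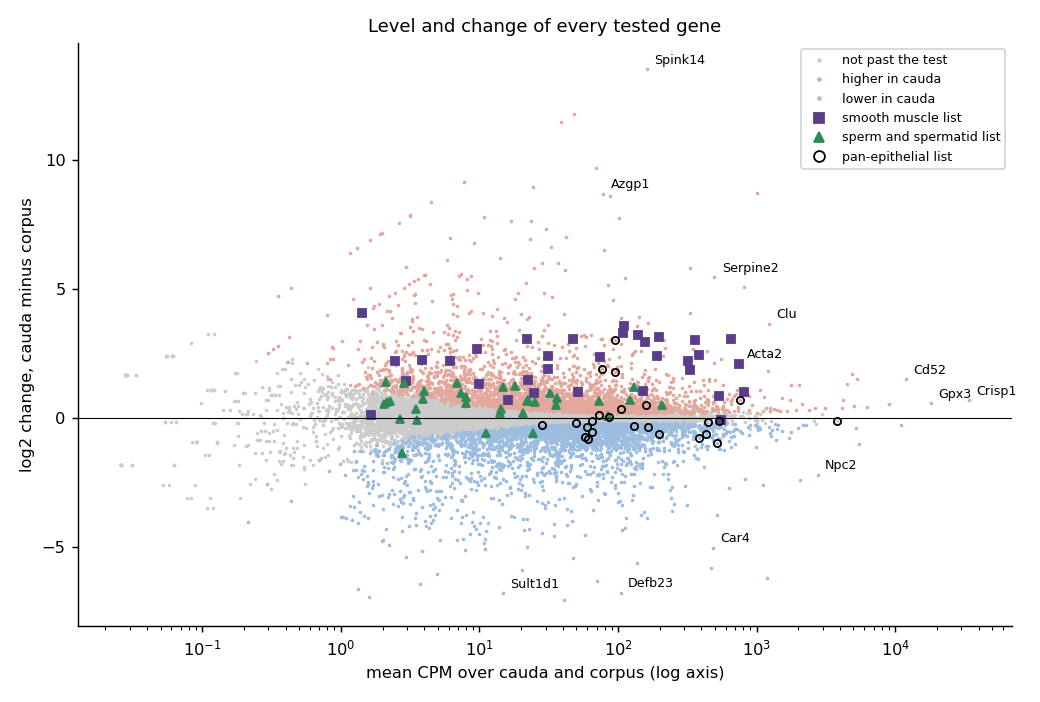
Each point is 1 of the 14168 tested genes, with its mean CPM over cauda and corpus on a log axis and its log2 change, cauda minus corpus, on the vertical axis. Squares of the smooth muscle list lie almost all above 0, triangles of the sperm list lie mostly a little above it and circles of the pan-epithelial list lie around it. The fitted change of a gene with no count in corpus, such as Spink14, depends on the fit's prior count.

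Cell content was read from marker lists, as the CPM of a list summed in each library. The 34 smooth muscle genes in the files summed to 7488, 8062 and 12710 CPM in cauda, against 2963, 3212 and 2245 CPM in corpus. Every cauda library stood above every corpus library, and cauda replicate 3 held the most muscle transcript. The sperm and spermatid list summed to 1008, 1493 and 1035 CPM in cauda, against 764, 744 and 799 CPM in corpus, again without overlap, with cauda replicate 2 the highest. The fibroblast and matrix list summed to 4035, 3745 and 4217 CPM in cauda, against 1974, 3461 and 1606 CPM in corpus, and corpus replicate 2 came close to the cauda libraries. Endothelial and pericyte genes summed to 316, 247 and 212 CPM in cauda, against 431, 554 and 341 CPM in corpus, all cauda libraries lying below all corpus libraries. Notch3, the most abundant gene of this list and described below, took a large part of that gap. Corpus replicate 2 had the highest sum of this list. Corpus replicate 2 therefore stands apart in stroma and vessels, and results that rest on those lists are given with and without it. The pan-epithelial list summed to 8068, 8367 and 8056 CPM in cauda, against 8603, 8305 and 9237 CPM in corpus, a ratio of means of 0.937.

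**Figure D2:**
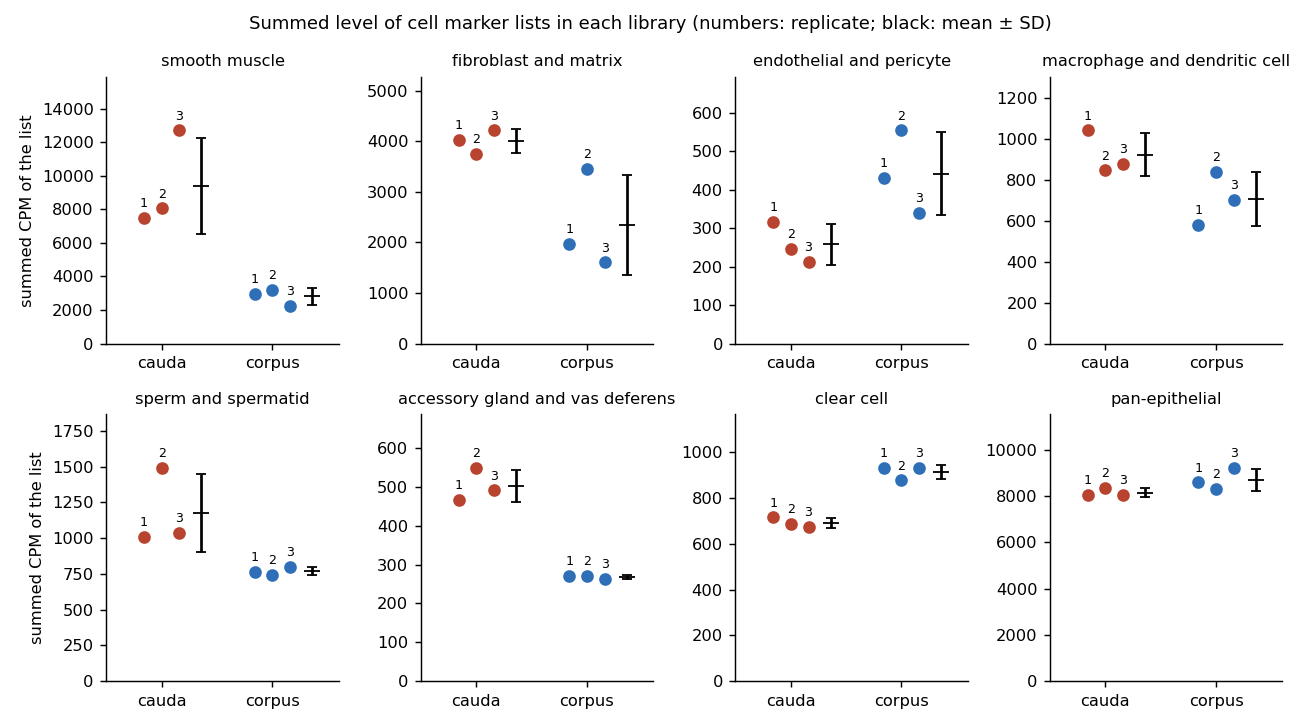
Summed CPM of 8 marker lists in each library, with cauda on the left and corpus on the right of each panel, and each axis starting at 0. Numbers mark replicates and the black mark is the mean ± SD of 3 libraries. The sums overlap between the segments in the pan-epithelial panel alone. For the fibroblast and macrophage lists corpus replicate 2 lies near the cauda libraries but below all of them.

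Smooth muscle genes were higher in cauda nearly throughout. Of 33 tested, 30 were higher and none lower, 27 of them by 2-fold or more, with a median log2 change of 2.24. Across all tested genes 18.8% were higher and the median was -0.00641. Myh11, the smooth muscle myosin heavy chain, had 737, 853 and 1916 CPM in cauda, against 159, 191 and 63.1 CPM in corpus. Its cauda libraries all stood above its corpus libraries, and cauda replicate 3 was the highest (log2 change 3.09 ± 0.41 SE, adjusted p = 4.7e-05). Acta2, the smooth muscle alpha-actin, had 1043, 1105 and 1501 CPM in cauda, against 331, 395 and 119 CPM in corpus, also without overlap (log2 change 2.11 ± 0.32 SE, adjusted p = 0.000149). Actg2, the enteric gamma-actin of visceral muscle, had 140.1, 201 and 275 CPM in cauda, against 21.3, 24.3 and 6.03 CPM in corpus. Its log2 change was 3.59 ± 0.34, and that of desmin (Des) was 3.13 ± 0.32. Synpo2, a Z-disc and actin-bundling protein, had 53.6, 53.2 and 146 CPM in cauda, against 11.2, 15.5 and 3.2 CPM in corpus (log2 change 3.07 ± 0.46 SE, adjusted p = 0.000152). The 3 tested genes that did not pass were Fhl1, Pln and Myocd. Fhl1, a LIM-domain protein of muscle, had 551, 555 and 529 CPM in cauda, against 573, 538 and 593 CPM in corpus, with a log2 change of -0.06 ± 0.07. Of the 30, 28 or 29 stayed called higher when any 1 library was left out, with a median of 1.94 without cauda replicate 3 and 2.62 without corpus replicate 2. Of 6 tested striated muscle genes, 4 were higher, among them skeletal alpha-actin Acta1 with 71.6, 84.9 and 135 CPM in cauda, against 11.6, 14 and 6.21 CPM in corpus (log2 change 3.19 ± 0.27 SE, adjusted p = 7.82e-07), whose libraries did not overlap. The striated list, of which none was lower, summed to 119.9, 136 and 194 CPM in cauda, against 45.3, 47.3 and 36 CPM in corpus.

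The promoters of muscle genes are known for CArG boxes, the binding sites of serum response factor. The box is its own reverse complement as a pattern, so a search of one strand covers both. Among RefSeq promoters of GRCm38.p6, 5 of the 27 smooth muscle genes with an entry held a box in the 250 bases before the start, a share of 18.52%. The share was 1.46% of tested genes with an entry (154 of 10567) and 1.62% of all genes with an entry (439 of 27025). A gene was counted when any of its entries held a box. The striated muscle list had 1 of 5 (20%), a higher share than that of smooth muscle. The immediate early and stress list had 2 of 19 (10.53%), the sperm list 3 of 30 (10%) and the lipocalin list 1 of 10 (10%). The fibroblast list had 0 of 19 and the pan-epithelial list 0 of 16. Windows around the box are shown because they belong to the list with the widest common change, with the box in capitals and each strand read 5′ to 3′ along the gene. They lie at chr2:114052883-114052952 (minus strand), chr2:156775273-156775342 (plus), chr10:79988514-79988583 (plus), chr14:34588682-34588746 (minus) and chrX:56779551-56779620 (plus).
Actc1: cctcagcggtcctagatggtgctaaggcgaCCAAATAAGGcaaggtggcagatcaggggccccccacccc
Myl9: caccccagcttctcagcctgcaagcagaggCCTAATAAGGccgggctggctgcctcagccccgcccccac
Cnn2: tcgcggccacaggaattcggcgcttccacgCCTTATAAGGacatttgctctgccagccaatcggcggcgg
Ldb3: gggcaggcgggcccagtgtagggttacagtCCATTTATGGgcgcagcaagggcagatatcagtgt
Fhl1: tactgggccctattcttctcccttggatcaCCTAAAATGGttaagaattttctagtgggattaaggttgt
Actc1, the cardiac alpha-actin, had 2.05, 2.2 and 3.98 CPM in cauda, against 0, 0.31 and 0 CPM in corpus, a ratio of 20.1-fold with a 95% counting interval of 5.26 to 171, since the corpus libraries held 2 counts. Myl9, a regulatory light chain of myosin, had 437, 486 and 660.3 CPM in cauda, against 126, 166 and 48.2 CPM in corpus and no overlap (log2 change 2.22 ± 0.32 SE, adjusted p = 9.34e-05). Cnn2, a calponin, had 69.3 ± 3.92 CPM in cauda and 34.3 ± 8.4 CPM in corpus (adjusted p = 0.000176), and Ldb3, a Z-disc protein, had a log2 change of 2.27 ± 0.38. The fifth, Fhl1, carries a box but did not pass the test, as above. A match in the window describes the sequence and is not a site of binding.

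Connective tissue genes gave a result that turned on 1 library. With all libraries, 9 of 31 fibroblast and matrix genes were higher in cauda and none was lower, with a median log2 change of 0.507. Without corpus replicate 2, 25 of 31 were higher and the median was 1.14. Col1a1, a chain of type I collagen, shows the pattern, with 151, 128 and 122 CPM in cauda, against 69.3, 206 and 59.9 CPM in corpus. Its groups overlap through corpus replicate 2, and its log2 change was 0.22 ± 0.34 with an adjusted p of 0.655, against 1.07 and 0.000137 without that library. Dcn, the proteoglycan decorin, had 595, 520.2 and 698 CPM in cauda, against 243, 420.1 and 189 CPM in corpus (log2 change 1.08 ± 0.24 SE, adjusted p = 0.00248), with no overlap. Fn1, fibronectin, had 76.9, 80.5 and 147 CPM in cauda, against 38.6, 27.9 and 44.4 CPM in corpus (log2 change 1.47 ± 0.25 SE, adjusted p = 0.000353). Ly6a, a surface protein of mesenchymal and other cells, had 649.6, 835 and 771 CPM in cauda, against 109, 156 and 101 CPM in corpus. It showed the widest change of the list (log2 change 2.61 ± 0.15 SE, adjusted p = 1.58e-08), and 28.8% of its 36-base windows, stretches of the transcript as long as a read, also occur in another gene.

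Endothelial genes did not follow the muscle. Of 20 tested, none was higher and 5 were lower in cauda, with a median log2 change of -0.348, and 3 were lower after epithelial scaling. Across all tested genes 18.8% were higher and 20.4% lower. Without corpus replicate 2 there was 1 higher and 4 lower with a median of 0.216, and without corpus replicate 3 there were 9 lower with a median of -0.635. Notch3, a receptor of vascular mural cells, was lower in each case, with 62.5, 66.4 and 49 CPM in cauda, against 170.0, 175 and 175 CPM in corpus (log2 change -1.55 ± 0.13 SE, adjusted p = 7.33e-07). As the most abundant gene of the list, Notch3 weighs most in its summed level. Pecam1, a defining endothelial marker, had 27, 14.8 and 13.9 CPM in cauda, against 21.3, 34.9 and 11.5 CPM in corpus, with overlapping groups and a log2 change of -0.30 ± 0.34 (adjusted p = 0.51). Of 24 macrophage and dendritic cell genes, 6 were higher and 1 lower, and after epithelial scaling 13 were higher and none lower. The count of higher genes was 10 without corpus replicate 2, 3 without cauda replicate 1 or corpus replicate 1, and 4 without corpus replicate 3. Laptm5, a lysosomal protein of blood-derived cells, had 41.9, 36 and 37.4 CPM in cauda, against 16.1, 20.3 and 19.8 CPM in corpus (log2 change 1.01 ± 0.12 SE, adjusted p = 1.45e-05). No gene of 4 tested lymphocyte markers passed the test, and 2 were higher after epithelial scaling. Th, the tyrosine hydroxylase of catecholamine synthesis, was higher with 48.5, 41.6 and 25.4 CPM in cauda, against 7.12, 4.65 and 5.65 CPM in corpus (log2 change 2.78 ± 0.27 SE, adjusted p = 1.02e-05), while Ncam1, an adhesion molecule, was lower at 337 ± 8.26 CPM in cauda and 454 ± 13.1 CPM in corpus. Alas2, the erythroid enzyme of haem synthesis, had 2.9, 4.2 and 4.14 CPM in cauda, against 23.6, 22.2 and 23.2 CPM in corpus (log2 change -2.61 ± 0.21 SE, adjusted p = 5.09e-07). Its partner on the other strand is Apex2.

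Sperm and spermatid genes were modestly higher in cauda. Of 33 tested, 19 were higher and 3 lower, with a median log2 change of 0.65, and after epithelial scaling 22 were higher and 1 lower. The most abundant protamine transcript, Prm2, which packs sperm DNA, had 139, 253 and 156 CPM in cauda, against 73, 87.1 and 75 CPM in corpus. Its cauda libraries stood above its corpus libraries and cauda replicate 2 was the highest (log2 change 1.21 ± 0.19 SE, adjusted p = 0.000181). Prm1 had 24.3, 29.6 and 22.4 CPM in cauda, against 8.99, 10.7 and 11.7 CPM in corpus (log2 change 1.25 ± 0.17 SE, adjusted p = 7.71e-05), and Tnp2, a transition protein of spermatids, 20.9 ± 1.65 CPM in cauda and 8.9 ± 0.800 CPM in corpus (log2 change 1.21 ± 0.20 SE, adjusted p = 0.000265). Odf1, an outer dense fibre protein of the sperm tail, had 137, 188 and 126 CPM in cauda, against 96.6, 79.9 and 103 CPM in corpus (log2 change 0.69 ± 0.14 SE, adjusted p = 0.00153). Akap4, the main fibrous sheath protein, had 11.3, 20.6 and 14.1 CPM in cauda, against 10.5, 13.8 and 14.9 CPM in corpus, with overlapping groups and an adjusted p of 0.583. The log2 changes of the 19 higher genes lay between 0.51 (Smcp, a sperm mitochondrial capsule protein) and 1.38 (Prm3). At 2-fold or more, 7 of the 19 were higher and 1 of the 3 lower genes was lower. Without cauda replicate 2, and likewise without corpus replicate 1, 13 genes were higher.

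The summed level of epithelial markers was close in both segments, but many single markers differed. Of 24 pan-epithelial genes, 6 were higher and 10 lower in cauda, beside 18.8% higher and 20.4% lower of all tested genes. The median log2 change of the list was -0.173, and after scaling on it 8 were higher and 7 lower. Epcam, an adhesion molecule of all epithelia, had 414, 438 and 411 CPM in cauda, against 474, 463 and 476 CPM in corpus (log2 change -0.16 ± 0.06, adjusted p = 0.0592). Keratins of simple epithelia differed in direction. Krt18 and Krt8, which pair in their filaments, were lower, Krt18 with 367, 351 and 332 CPM in cauda, against 689, 669 and 688 CPM in corpus (log2 change -0.96 ± 0.07 SE, adjusted p = 1.99e-07) and Krt8 with 284 ± 17.5 CPM in cauda and 485 ± 18.4 CPM in corpus (log2 change -0.77 ± 0.07 SE, adjusted p = 1.78e-06). Both stayed lower after epithelial scaling, and 30.4% of the 36-base windows of Krt8 occur in another gene. Krt19 was higher with 88.7, 108 and 167 CPM in cauda, against 30.3, 35 and 31.8 CPM in corpus (log2 change 1.89 ± 0.20 SE, adjusted p = 5.86e-06), and its groups did not overlap. Krt7 had 62.6 ± 7.86 CPM in cauda and 67.2 ± 1.76 CPM in corpus and did not pass the test (adjusted p = 0.453). Cldn4, a tight junction claudin, was higher with 151, 136 and 154 CPM in cauda, against 41.9, 38.5 and 46 CPM in corpus and no overlap (log2 change 1.81 ± 0.10 SE, adjusted p = 9.75e-09). In the wider list of tight junction and adhesion genes 5 of 28 were higher and 11 lower, and after epithelial scaling 8 were higher and 5 lower. Cldn8 had 430.3 ± 19.9 CPM in cauda and 145 ± 27.4 CPM in corpus (log2 change 1.58 ± 0.12 SE, adjusted p = 2.09e-07). Cdh1, E-cadherin, had 339.9 ± 16.5 CPM in cauda and 528 ± 41 CPM in corpus (log2 change -0.63 ± 0.07 SE, adjusted p = 1.81e-05).

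**Figure D3:**
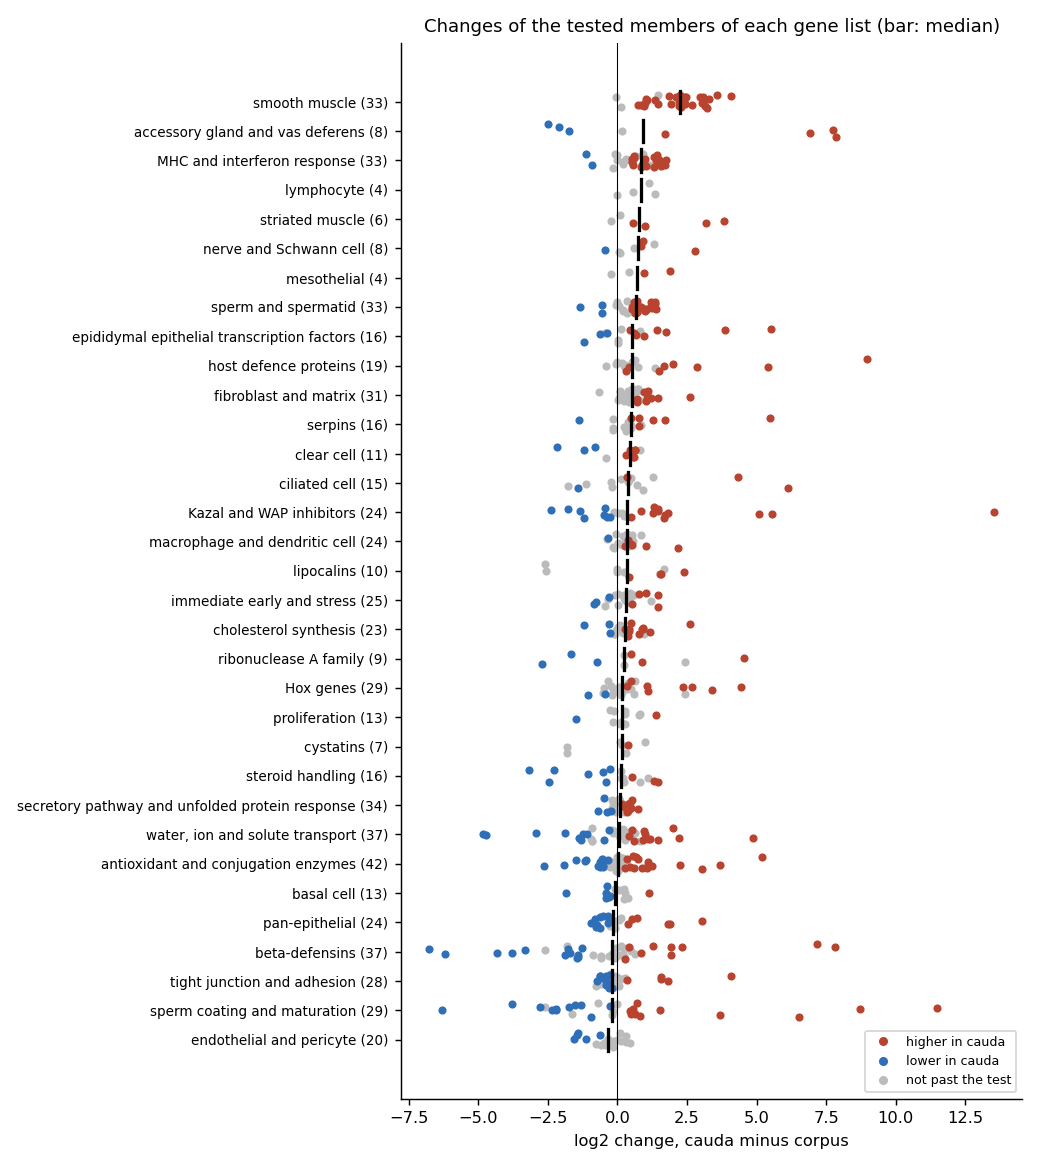
Log2 changes, cauda minus corpus, of the tested members of each gene list with at least 4 tested genes, the number tested standing in parentheses. Points are genes coloured by call and black bars are medians. The smooth muscle list has the highest median, 2.24, and the endothelial list the lowest, -0.348, while secreted protein lists hold wide changes of both signs.

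Transcription factors of the epididymal epithelium differed gene by gene. Of 16 tested, 8 were higher and 3 lower. Pax8, a paired box factor of the duct, had 233, 231 and 206 CPM in cauda, against 524, 512 and 515 CPM in corpus, with all cauda libraries lower (log2 change -1.21 ± 0.07 SE, adjusted p = 2.9e-08). Its relative Pax2 had 326, 317 and 292 CPM in cauda, against 309, 307 and 316 CPM in corpus and a log2 change of 0.01 ± 0.08 (adjusted p = 0.957). Gata2 had 187, 203 and 206 CPM in cauda, against 12.4, 21.4 and 5.46 CPM in corpus (log2 change 3.87 ± 0.28 SE, adjusted p = 1.99e-07), and Gata3 211 ± 17.8 CPM in cauda and 141 ± 9.63 CPM in corpus (log2 change 0.59 ± 0.08 SE, adjusted p = 9.31e-05). Elf5, an ETS factor of secretory epithelia, had 9.05, 10.6 and 22 CPM in cauda, against 0.749, 0.155 and 0.188 CPM in corpus (log2 change 5.51 ± 0.55 SE, adjusted p = 4.02e-06). With the smooth muscle list as a covariate the log2 change of Gata2 was 2.32 (adjusted p = 0.0239) and that of Elf5 was 2.88 (adjusted p = 0.0683), so the Elf5 call was lost. Of 29 tested Hox genes, 8 were higher and 2 lower, beside 18.8% higher and 20.4% lower of all tested genes. After epithelial scaling 13 Hox genes were higher and 1 lower. The higher ones included Hoxb9 with 144, 185 and 150.3 CPM in cauda, against 27.7, 27.1 and 20 CPM in corpus (log2 change 2.69 ± 0.14 SE, adjusted p = 6.11e-09), Hoxa10 with 63.7 ± 1.54 CPM in cauda and 12.7 ± 4.47 CPM in corpus (log2 change 2.35 ± 0.20 SE, adjusted p = 7.61e-07) and Hoxb8 with 528 ± 45.2 CPM in cauda and 256 ± 10.9 CPM in corpus (log2 change 1.05 ± 0.08 SE, adjusted p = 2.5e-07). Hoxa11 had 10.4, 12 and 14.7 CPM in cauda, against 0.374, 1.09 and 0 CPM in corpus (log2 change 4.43 ± 0.51 SE, adjusted p = 1.53e-05), and Hoxd10 23.7, 16.8 and 24.7 CPM in cauda, against 1.87, 3.41 and 0.565 CPM in corpus (log2 change 3.40 ± 0.36 SE, adjusted p = 6.96e-06). Hoxa10, Hoxa11, Hoxb9 and Hoxd10 belong to the posterior groups of their clusters. The lower genes were Hoxd3 (log2 change -0.46 ± 0.08 SE, adjusted p = 0.000414), of which 60.9% of the 36-base windows occur in another gene, and Hoxc9, whose call was lost in part of the fits without 1 library (adjusted p up to 0.208). In the cluster of Hoxb genes 4 of 9 tested genes were higher and in that of Hoxa genes 3 of 9, with none lower in either.

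Many of the most abundant transcripts of both segments encode proteins that coat or bathe sperm. Crisp1, which encodes a secreted protein that associates with the sperm head, lies at chr17:40293758-40319207 in GRCm38 and had 46163, 42479 and 38252 CPM in cauda, against 29090, 22797 and 26750 CPM in corpus. The groups did not overlap, although the change was below 2-fold (log2 change 0.69 ± 0.13 SE, adjusted p = 0.000806). Cd52, a short glycosylphosphatidylinositol-anchored glycopeptide passed to sperm, had 16048, 18859 and 18171 CPM in cauda, against 5927, 5709 and 6906 CPM in corpus (log2 change 1.52 ± 0.12 SE, adjusted p = 6.1e-07). Per gene length, Cd52 reached 18364 ± 1479 RPKM in cauda and 6090.5 ± 326 RPKM in corpus, and Crisp1 15592 ± 1367 RPKM in cauda and 9196 ± 1121 RPKM in corpus. The Cd52 gene lies at chr4:134082448-134095082 and overlaps Crybg2. Of 29 tested genes of the sperm coating and maturation list, 12 were higher and 11 lower in cauda. With the 6 libraries alone 23 were tested, with 11 higher and 10 lower. Clu, the secreted chaperone clusterin, had 2018, 1883 and 2908 CPM in cauda, against 184, 201 and 151 CPM in corpus (log2 change 3.67 ± 0.16 SE, adjusted p = 2.25e-09), with no overlap. Npc2, a cholesterol-binding protein of epididymal fluid, had 1079.5, 1058 and 814 CPM in cauda, against 4377, 3972 and 5239 CPM in corpus (log2 change -2.20 ± 0.12 SE, adjusted p = 1.55e-08). Cuzd1, whose product carries CUB and zona pellucida domains, was among the most abundant in both segments at 10010 ± 1006 CPM in cauda and 12091 ± 1167 CPM in corpus. The log2 change of Cuzd1 was -0.27 ± 0.10 SE (adjusted p = 0.037), and the call was lost after epithelial scaling and without cauda replicate 2, cauda replicate 3, corpus replicate 1 or corpus replicate 3 (adjusted p of 0.0574, 0.149, 0.0597 and 0.12). Adam7, a metalloprotease-like membrane protein, and Ces5a, a carboxylesterase secreted in the duct, had log2 changes of 0.44 ± 0.10 and 0.47 ± 0.11. Glb1l3, a relative of beta-galactosidase, had 78.1, 70.2 and 62.3 CPM in cauda, against 886, 943 and 1059 CPM in corpus (log2 change -3.78 ± 0.10 SE, adjusted p = 3.23e-11). Crisp4 was lower at 39.4 ± 1.73 CPM in cauda and 185 ± 20.1 CPM in corpus (log2 change -2.23 ± 0.10 SE, adjusted p = 1.56e-09), and Crisp3 higher at 1450.1 ± 29.7 CPM in cauda and 830.4 ± 114 CPM in corpus (log2 change 0.81 ± 0.10 SE, adjusted p = 3.27e-05). The Crisp family therefore had members of both signs, also after epithelial scaling.

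**Figure D4:**
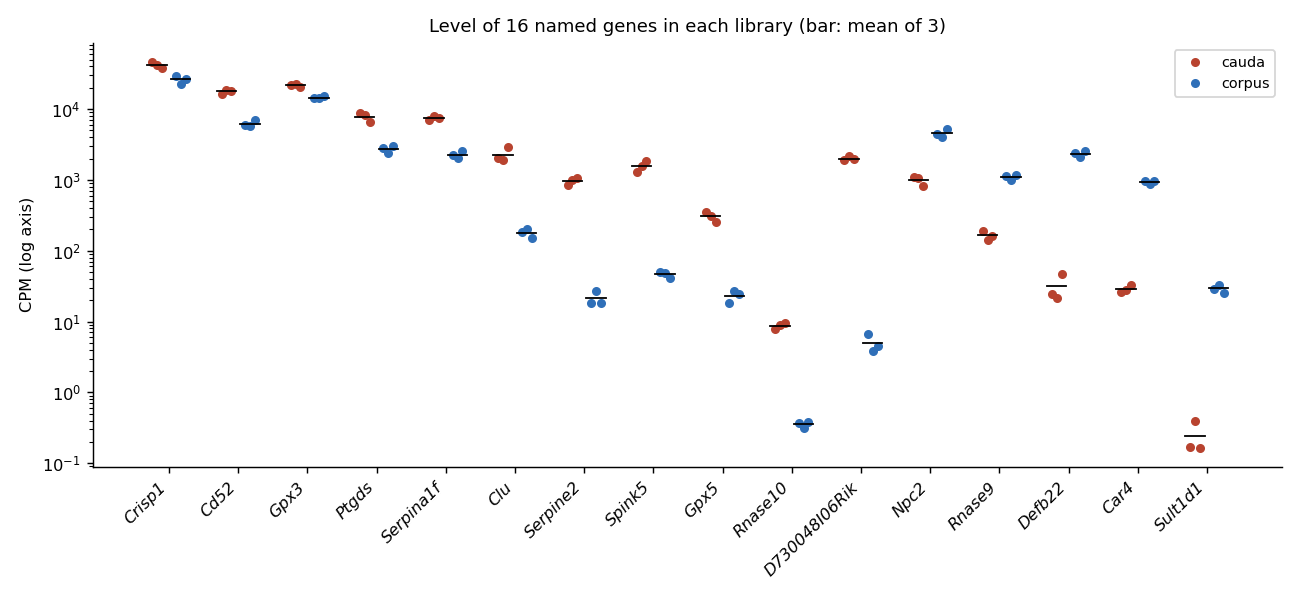
CPM of 16 named genes in each library on a log axis, cauda on the left and corpus on the right of each gene, with bars at the mean of 3 libraries. Genes from Crisp1 to D730048I06Rik are higher in cauda and genes from Npc2 to Sult1d1 are lower, and in none of the 16 do the 2 groups overlap.

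Protease inhibitors included some of the widest changes. Of 24 tested Kazal and WAP inhibitors, 12 were higher and 8 lower in cauda, and after epithelial scaling 12 were higher and 4 lower. Spink14 had 219.7, 392 and 365 CPM in cauda, against 0, 0 and 0 CPM in corpus, with 5446 counts over the cauda libraries and 0 over the corpus libraries. Against a floor of 3 counts over the corpus libraries it was at least 1550-fold higher in cauda. Spink5, a multidomain Kazal inhibitor known from skin, had 1302, 1551 and 1858 CPM in cauda, against 49.8, 48.8 and 41.4 CPM in corpus (log2 change 5.08 ± 0.14 SE, adjusted p = 3.48e-11). Spink10 had 1889 ± 133 CPM in cauda and 538 ± 67 CPM in corpus (log2 change 1.81 ± 0.10 SE, adjusted p = 1.55e-08), and Spink8, the most abundant of the list, had 4484 ± 54.5 CPM in cauda and 5866 ± 515 CPM in corpus (log2 change -0.39 ± 0.09 SE, adjusted p = 0.0027), a call lost after epithelial scaling (log2 change -0.20, adjusted p = 0.0623). Spink5 had 1289 ± 16.9 CPM in caput, so the corpus level was the lowest of the 3 segments. Eppin, which carries a WAP and a Kunitz domain and coats sperm, had 98.9, 115 and 85 CPM in cauda, against 329.9, 342 and 351 CPM in corpus (log2 change -1.78 ± 0.10 SE, adjusted p = 1.28e-08). The number of lower genes was 5 without corpus replicate 1. Of 16 serpins, 6 were higher and 1 lower, and 9 were higher without corpus replicate 2. Serpine2, an inhibitor of thrombin and plasminogen activators also called protease nexin 1, had 838, 1005 and 1071 CPM in cauda, against 18.4, 26.8 and 18.5 CPM in corpus (log2 change 5.48 ± 0.15 SE, adjusted p = 3.99e-11). Serpina1f was the most abundant serpin, with 6979, 7959 and 7376 CPM in cauda, against 2225, 2037 and 2519.6 CPM in corpus (log2 change 1.72 ± 0.10 SE, adjusted p = 1.79e-08). The serpin list summed to 8552, 9596 and 9155 CPM in cauda, against 2705, 2766 and 2945 CPM in corpus, a ratio of means of 3.24.

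Beta-defensins, small cationic antimicrobial peptides many of which coat sperm in the epididymis, changed in both directions. Of 37 tested, 9 were higher and 12 lower, beside 18.8% higher and 20.4% lower of all tested genes. With the 6 libraries alone 27 were tested, again with 9 higher and 12 lower. Defb22, a sperm-coating glycoprotein, lies at chr2:152485663-152490138 and had 24.8, 21.8 and 47.1 CPM in cauda, against 2393, 2072 and 2557 CPM in corpus. Each cauda library was below each corpus library, and cauda replicate 3 was the highest of the cauda libraries (log2 change -6.21 ± 0.23 SE, adjusted p = 3.63e-10). Defb23 had 0.512, 1.4 and 3.65 CPM in cauda, against 148, 242 and 236 CPM in corpus (log2 change -6.78 ± 0.39 SE, adjusted p = 1.86e-08), and Defb42 46.3 ± 0.923 CPM in cauda and 460.1 ± 20.2 CPM in corpus (log2 change -3.31 ± 0.08 SE, adjusted p = 2.46e-11). On the higher side, Defb2 had 873, 991 and 891 CPM in cauda, against 180.1, 166 and 210.4 CPM in corpus (log2 change 2.31 ± 0.09 SE, adjusted p = 8.52e-10), and 25.2% of its 36-base windows occur in another gene. Defb18 had 29, 18.2 and 17.6 CPM in cauda, against 0, 0 and 0.188 CPM in corpus, a ratio of 314-fold with a 95% counting interval of 55.9 to 12400, since corpus held 1 count. Defb28, the most abundant in cauda, had 1790.4 ± 129.7 CPM in cauda and 1497 ± 92 CPM in corpus, and the log2 change of Defb28 was 0.26 ± 0.08 SE (adjusted p = 0.0259). The call was lost without cauda replicate 2, cauda replicate 3, corpus replicate 1 or corpus replicate 2 (adjusted p of 0.059, 0.0836, 0.0814 and 0.0633).

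Members of the ribonuclease A family, several of which are epididymal secreted proteins without the catalytic residues, split evenly, 3 of 9 tested being higher and 3 lower. Rnase9 had 189, 143 and 162 CPM in cauda, against 1121, 994 and 1164 CPM in corpus (log2 change -2.73 ± 0.11 SE, adjusted p = 7.62e-10), Rnase12 495 ± 38.3 CPM in cauda and 819 ± 40.9 CPM in corpus (log2 change -0.73 ± 0.08 SE, adjusted p = 6.02e-06) and Rnase10 8.77 ± 0.819 CPM in cauda and 0.354 ± 0.0378 CPM in corpus (log2 change 4.56 ± 0.31 SE, adjusted p = 9.33e-08). Lipocalins, carriers of small lipophilic molecules, had 4 of 10 tested genes higher and none lower. With the 6 libraries alone 4 lipocalins were tested, and all 4 were higher. Ptgds, the lipocalin-type prostaglandin D synthase, had 8697, 8162 and 6599 CPM in cauda, against 2826, 2372 and 2995 CPM in corpus (log2 change 1.52 ± 0.11 SE, adjusted p = 2.37e-07), and Lcn12 had 244 ± 9.4 CPM in cauda and 82.5 ± 3.42 CPM in corpus (log2 change 1.57 ± 0.07 SE, adjusted p = 2.25e-09). Lcn8, Lcn9 and Lcn10, known from the proximal epididymis, had under 1 CPM in each cauda and corpus library. The lipocalin list as a whole summed to 9378, 8813 and 7529 CPM in cauda, against 3093, 2658 and 3242 CPM in corpus. Only Cst3, the common cystatin C, passed the test among 7 tested cystatins and was higher, at 419 ± 20 CPM in cauda and 325 ± 27.7 CPM in corpus, and 2 passed after epithelial scaling. With the 6 libraries alone 2 cystatins were tested and 1 was higher.

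Many genes of these families lie in clusters, and in places neighbours changed in opposite directions. In the WAP inhibitor cluster at chr2:164176327-164745931 in GRCm38, all 13 tested genes were called, 7 higher and 6 lower. Going along the chromosome, the sign switched 9 times between neighbouring called genes. Wfdc15b had 2498 ± 236 CPM in cauda and 1016 ± 113 CPM in corpus (log2 change 1.30 ± 0.10 SE, adjusted p = 2.33e-07), and its tested neighbours Wfdc15a and Wfdc2 were both lower (log2 change -1.34 ± 0.40 SE, adjusted p = 0.0178 for Wfdc15a and log2 change -1.22 ± 0.30 SE, adjusted p = 0.00549 for Wfdc2). Wfdc13 had 949, 672 and 358 CPM in cauda, against 3494, 3409 and 3524 CPM in corpus (log2 change -2.40 ± 0.26 SE, adjusted p = 6.96e-06), next to Wfdc3, which was higher with 12.5, 6.4 and 4.47 CPM in cauda, against 0, 0 and 0.377 CPM in corpus, a ratio of 56.4-fold with a 95% counting interval of 15.3 to 471. The calls of Wfdc15a and Wfdc16 were lost in part of the fits that left out 1 library (adjusted p up to 0.0718 and 0.0915), and after epithelial scaling Wfdc11 and Wfdc16 were not called (adjusted p = 0.131 and 0.476), which left 11 called genes and 7 switches. Wfdc6b and Wfdc8 overlap, and 44.4% of the windows of Wfdc6b occur in another gene. In the Pate cluster at chr9:35570284-36643376, which encodes small cysteine-rich proteins of the Ly6 type found on sperm and in seminal fluid, there was 1 switch. Pate2, Pate4, Gm17365 (annotated as Pate3) and Gm17252 at one end were lower, and Gm17727, D730048I06Rik and Gm5615 at the other were higher. Gm17365 had 1.37, 1.2 and 2.49 CPM in cauda, against 147, 121 and 149.7 CPM in corpus (log2 change -6.32 ± 0.19 SE, adjusted p = 8.28e-10). D730048I06Rik had 1898, 2147 and 1944 CPM in cauda, against 6.74, 3.88 and 4.52 CPM in corpus (log2 change 8.72 ± 0.14 SE, adjusted p = 5.2e-13), and had 1912 ± 88.7 CPM in caput, so that it was low in corpus alone. Gm5615 was at least 372-fold higher, with 1307 counts over the cauda libraries and 0 over the corpus libraries. All 36-base windows of Gm17727 and 17.3% of those of D730048I06Rik occur in another gene, and Pate2 overlaps other Pate genes, so counts may be shared there. In the beta-defensin cluster at chr2:152459055-152623053, 5 of 11 tested genes were lower and Defb28 alone was higher. In that at chr8:20892669-21948850, 4 of 10 were higher and 2 lower, and between 14.5% and 27.3% of the windows of Defb2, Defb9, Defb10 and Defb11 occur in another gene.

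**Figure D5:**
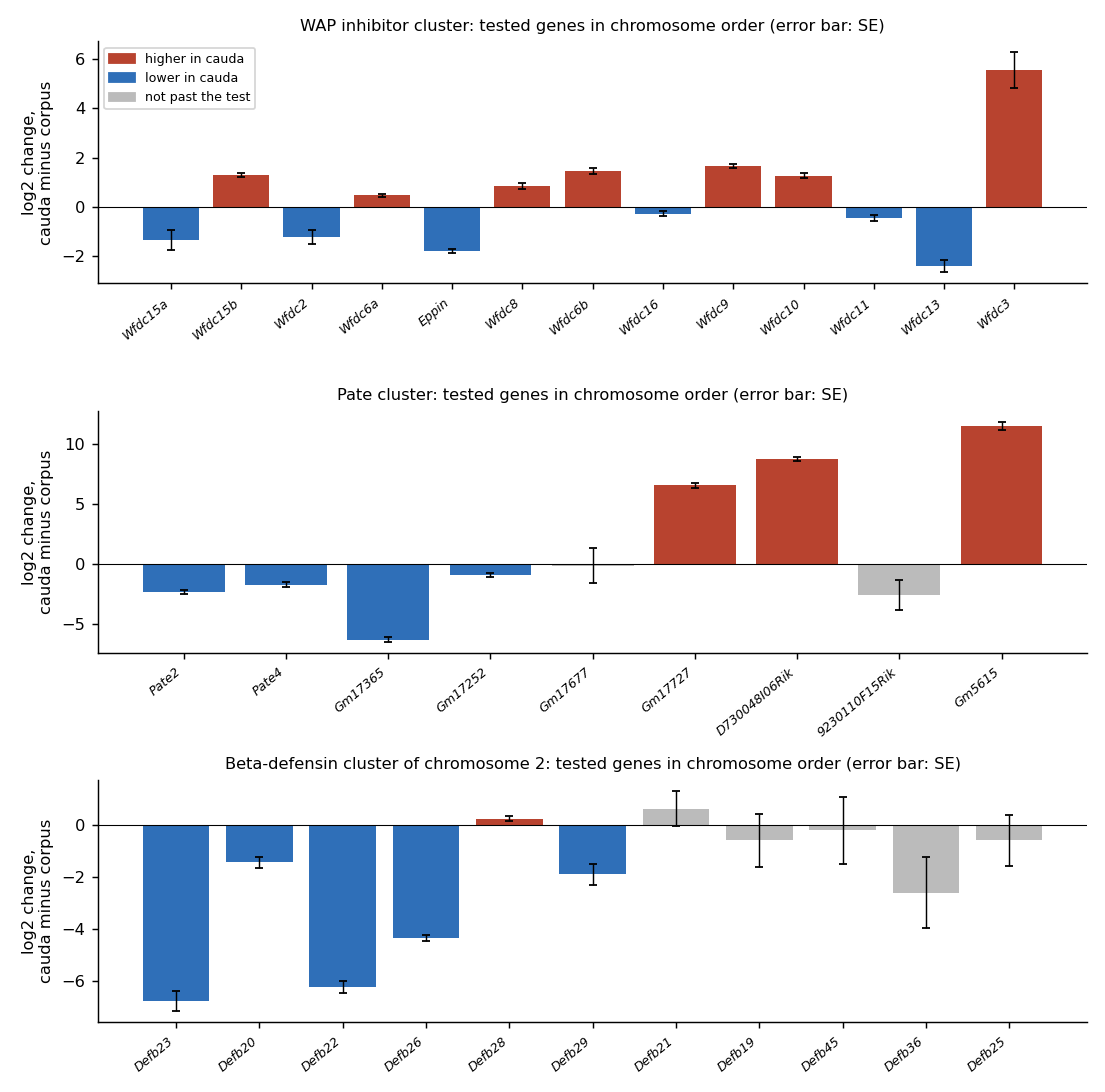
Log2 change, cauda minus corpus, of the tested genes of 3 clusters in their order along the chromosome, with SE as the error bar. In the WAP inhibitor cluster higher and lower genes alternate, in the Pate cluster the lower genes sit at one end and the higher ones at the other, and in the beta-defensin cluster of chromosome 2 the lower genes lie around Defb28.

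Transporters of water, ions and solutes, by which the epithelium sets the luminal fluid, differed by member, 12 of 37 tested being higher and 10 lower. Across all tested genes 18.8% were higher and 20.4% lower. Slc34a2, a sodium-phosphate cotransporter, had 23.2, 17.6 and 14.6 CPM in cauda, against 136, 134 and 150.1 CPM in corpus (log2 change -2.92 ± 0.13 SE, adjusted p = 2.53e-09). Kcnj16, a potassium channel, had 0.512, 1.2 and 0.497 CPM in cauda, against 16.9, 24 and 21.3 CPM in corpus (log2 change -4.83 ± 0.31 SE, adjusted p = 6.3e-08), and Aqp5, a water channel, 0.346 ± 0.149 CPM in cauda and 9.96 ± 1.81 CPM in corpus (log2 change -4.72 ± 0.41 SE, adjusted p = 1.1e-06). Aqp9, the main aquaglyceroporin of the principal cell, had 484 ± 16.4 CPM in cauda and 464 ± 7.01 CPM in corpus and did not pass (log2 change 0.06 ± 0.10, adjusted p = 0.674). Slc23a1, a sodium-coupled vitamin C transporter, had 63.4, 51.6 and 55.5 CPM in cauda, against 2.25, 2.48 and 1.13 CPM in corpus (log2 change 4.86 ± 0.21 SE, adjusted p = 1.53e-09). Slc26a3, a chloride-bicarbonate exchanger, had 120 ± 8.47 CPM in cauda and 29.6 ± 1.74 CPM in corpus (log2 change 2.01 ± 0.10 SE, adjusted p = 6.96e-09), and the calcium channel Trpv6 400.0 ± 22.1 CPM in cauda and 179 ± 9.19 CPM in corpus (log2 change 1.16 ± 0.11 SE, adjusted p = 1.64e-06). Outside the lists, Car4, a membrane-anchored carbonic anhydrase, had 26.3, 27.4 and 32.3 CPM in cauda, against 956, 872 and 973 CPM in corpus (log2 change -5.02 ± 0.10 SE, adjusted p = 3.94e-12), and lies at chr11:84957786-84966044.

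Clear cells express the proton pump and its regulators. Of 11 tested clear cell genes, 6 were higher and 3 lower. The pump subunit Atp6v0d2 had 81.1, 68.6 and 84 CPM in cauda, against 50.9, 47.9 and 52.7 CPM in corpus (log2 change 0.63 ± 0.09 SE, adjusted p = 9.42e-05), Atp6v1g3 82.5 ± 5.5 CPM in cauda and 54.8 ± 4.39 CPM in corpus (log2 change 0.58 ± 0.09 SE, adjusted p = 0.000159), and the clear cell factor Foxi1 116 ± 6.66 CPM in cauda and 83.7 ± 4.11 CPM in corpus (log2 change 0.47 ± 0.08 SE, adjusted p = 0.000338). The carbonic anhydrase Car2 went the other way with 87.6, 78.1 and 64 CPM in cauda, against 366, 335 and 328 CPM in corpus (log2 change -2.16 ± 0.11 SE, adjusted p = 6.97e-09), and so did Car12 (log2 change -1.20 ± 0.11 SE, adjusted p = 1.22e-06) and the pump subunit Atp6v1c2 (log2 change -0.82 ± 0.08 SE, adjusted p = 3.01e-06). Since Car2 is the most abundant gene of the list, the summed level was lower in cauda, at 715, 688 and 673 CPM in cauda, against 933, 878 and 933 CPM in corpus, while more of its members were higher. Among 13 basal cell genes 1 was higher and 6 were lower, but 3 were lower without cauda replicate 1, cauda replicate 3, corpus replicate 1 or corpus replicate 2. After epithelial scaling 4 were higher and 1 was lower. Itga6, an integrin of the basal membrane, had 33.5, 33.8 and 35.3 CPM in cauda, against 119, 124 and 128 CPM in corpus (log2 change -1.86 ± 0.10 SE, adjusted p = 1.4e-08), and Krt15 96.1 ± 13.9 CPM in cauda and 44 ± 2.42 CPM in corpus (log2 change 1.13 ± 0.11 SE, adjusted p = 2.34e-06). Of 15 tested ciliated cell genes 3 were higher and 1 was lower, beside 18.8% higher and 20.4% lower of all tested genes, and 5 were higher after epithelial scaling. With the 6 libraries alone 9 were tested, with 3 higher and 1 lower. The higher genes included Dnah9, an axonemal dynein, at 7.17, 13.2 and 14.4 CPM in cauda, against 0, 0.155 and 0.188 CPM in corpus, a ratio of 83.3-fold with a 95% counting interval of 22.8 to 693. Foxj1, which defines ciliated cells, had 0.683, 0.801 and 0.663 CPM in cauda, against 0.374, 0.31 and 0.188 CPM in corpus and did not pass the test (adjusted p = 0.197).

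Of 16 tested genes of steroid handling, 3 were higher and 7 lower in cauda, beside 18.8% higher and 20.4% lower of all tested genes. The 5-alpha-reductase genes Srd5a1 and Srd5a2 were both lower. The count of higher genes was 5 without cauda replicate 1 and 7 after epithelial scaling. Srd5a1, which makes dihydrotestosterone from testosterone, had 14.9, 17 and 11.6 CPM in cauda, against 121, 141 and 125 CPM in corpus (log2 change -3.17 ± 0.13 SE, adjusted p = 9.12e-10), and Srd5a2 16.4 ± 2.21 CPM in cauda and 34.6 ± 3.95 CPM in corpus (log2 change -1.06 ± 0.12 SE, adjusted p = 1.69e-05). Sult1e1, an estrogen sulfotransferase, had 20.3, 22.4 and 22 CPM in cauda, against 113, 121 and 121 CPM in corpus (log2 change -2.46 ± 0.10 SE, adjusted p = 7.62e-10). Fkbp5, a co-chaperone of steroid receptors and a known androgen target, had 525 ± 18.1 CPM in cauda and 758 ± 55.2 CPM in corpus (log2 change -0.53 ± 0.07 SE, adjusted p = 6.09e-05). Among antioxidant and conjugation enzymes 16 of 42 were higher and 12 lower. Gpx3, a secreted glutathione peroxidase, was the second most abundant of all genes in cauda with 22061, 22435 and 20321 CPM in cauda, against 14168, 14096 and 15093 CPM in corpus (log2 change 0.58 ± 0.13 SE, adjusted p = 0.00324). Gpx5, an epididymal glutathione peroxidase, had 346, 313 and 258 CPM in cauda, against 18, 27.3 and 24.3 CPM in corpus (log2 change 3.68 ± 0.15 SE, adjusted p = 8.28e-10), and its caput level was 48958 ± 2571 CPM. Gstm6, a glutathione transferase, had 83.5 ± 6.46 CPM in cauda and 522 ± 30.9 CPM in corpus (log2 change -2.65 ± 0.08 SE, adjusted p = 8.6e-11), and Nqo1, a quinone reductase, 62 ± 13.7 CPM in cauda and 236 ± 16.2 CPM in corpus (log2 change -1.94 ± 0.13 SE, adjusted p = 9.82e-08). Cholesterol synthesis had 11 of 23 genes higher and 3 lower (14 higher and 1 lower after epithelial scaling), among the higher ones Nsdhl with 343 ± 30.4 CPM in cauda and 151 ± 0.66 CPM in corpus (log2 change 1.18 ± 0.09 SE, adjusted p = 1.99e-07) and Hmgcs1, the synthase of the mevalonate route, with 246 ± 27.6 CPM in cauda and 134 ± 1.44 CPM in corpus (log2 change 0.87 ± 0.08 SE, adjusted p = 2.23e-06). In the secretory pathway and unfolded protein response list 14 of 34 were higher and 4 lower, 9 were higher without cauda replicate 2, and 20 were higher and 2 lower after epithelial scaling.

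Antigen presentation and interferon-response genes were mostly higher in cauda. Of 33 tested, 20 were higher and 2 lower, with a median log2 change of 0.853, and without corpus replicate 2 the count was 23 higher with a median of 1.15. B2m, the light chain of class I molecules, had 6690.4, 6795 and 5862 CPM in cauda, against 2838, 2354 and 2583 CPM in corpus (log2 change 1.32 ± 0.09 SE, adjusted p = 1.42e-07). Irf1, an interferon-induced factor, had 69.2, 43 and 51.7 CPM in cauda, against 16.1, 23.6 and 19.8 CPM in corpus (log2 change 1.43 ± 0.19 SE, adjusted p = 4.78e-05), and Ifit1 20.2 ± 3.01 CPM in cauda and 6.91 ± 0.548 CPM in corpus (log2 change 1.57 ± 0.21 SE, adjusted p = 5.74e-05). The class I heavy chain H2-K1 was lower with 625, 656 and 584 CPM in cauda, against 1291, 1242 and 1510.4 CPM in corpus (log2 change -1.12 ± 0.10 SE, adjusted p = 9.25e-07), and 17.6% of its windows occur in another gene. The macrophage list, of which 6 of 24 genes were higher, summed to 1042, 847 and 879 CPM in cauda, against 579, 840.1 and 701 CPM in corpus, and its part in these changes was not tested. With the smooth muscle list as a covariate B2m alone of the 20 stayed called. Of 19 host defence genes 8 were higher and none lower, and 12 were higher without corpus replicate 2. Bpi, a bactericidal protein, had 14.9, 15 and 17.9 CPM in cauda, against 0, 0.155 and 0.753 CPM in corpus (log2 change 5.42 ± 0.35 SE, adjusted p = 6.02e-08). S100a8, a subunit of calprotectin abundant in neutrophils, had 71.7, 51.8 and 22.7 CPM in cauda, against 0, 0.155 and 0 CPM in corpus, a ratio of 697-fold with a 95% counting interval of 125 to 27600, since corpus held 1 count. Cd59a, which protects cells and sperm from complement, had 45.2 ± 5.94 CPM in cauda and 16 ± 1.36 CPM in corpus (log2 change 1.48 ± 0.12 SE, adjusted p = 6.49e-07).

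Beyond the lists, the widest increases included Azgp1, a secreted lipid-binding glycoprotein of the class I fold, with 142, 169 and 159 CPM in cauda, against 0, 0.465 and 0.377 CPM in corpus (log2 change 8.71 ± 0.22 SE, adjusted p = 2.46e-11). Smpx, a small muscle protein, had 181, 185 and 159 CPM in cauda, against 0.374, 0.465 and 0.377 CPM in corpus (log2 change 8.63 ± 0.18 SE, adjusted p = 5.99e-11). Cryba4, a crystallin known from the lens, had a ratio of 993-fold with a 95% counting interval of 275 to 8200, its corpus libraries holding 2 counts. Mat1a, a methionine adenosyltransferase of liver, had 27.7, 35.2 and 38.1 CPM in cauda, against 0.374, 0 and 0.188 CPM in corpus, a ratio of 243-fold with an interval of 66.9 to 2010. The widest decreases included Dgkk, a diacylglycerol kinase, with 0.342, 0 and 1.33 CPM in cauda, against 80.5, 72.1 and 91.9 CPM in corpus (log2 change -7.04 ± 0.33 SE, adjusted p = 3.23e-09). Sult1d1, a sulfotransferase, had 0.171, 0.400 and 0.166 CPM in cauda, against 29.2, 33 and 25.6 CPM in corpus (log2 change -6.80 ± 0.33 SE, adjusted p = 4.08e-09), and Myom2, a protein of the striated muscle M-band, had 6.66, 4.2 and 5.3 CPM in cauda, against 264, 282 and 260.3 CPM in corpus (log2 change -5.62 ± 0.17 SE, adjusted p = 7.27e-11). The change of Myom2 was opposite in sign to that of the 4 called genes of the striated list. Tg, the thyroglobulin of the thyroid, had 0.657 ± 0.273 CPM in cauda and 40.2 ± 9.13 CPM in corpus (log2 change -5.88 ± 0.31 SE, adjusted p = 9.69e-09), and Cdhr2, a cadherin of microvilli, 2.21 ± 1.22 CPM in cauda and 91.9 ± 9.53 CPM in corpus (log2 change -5.41 ± 0.21 SE, adjusted p = 5.51e-10). None of these genes overlapped between the segments, as was required to name them. Across all tested genes 23.9% had every cauda library above every corpus library and 26.3% had every cauda library below.

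Genes of the accessory glands and vas deferens were also measured, since the cauda joins the vas deferens. Of 8 tested, 4 were higher and 3 lower. Svs1, a seminal vesicle secretory protein, had 169, 236 and 200.3 CPM in cauda, against 0.374, 0.31 and 1.88 CPM in corpus (log2 change 7.76 ± 0.29 SE, adjusted p = 4.06e-09). Svs4 had 107 counts over the cauda libraries and 0 over the corpus libraries, at least 30.5-fold higher, and Svs2 55 counts and 0, at least 15.7-fold higher. Akr1b7, an aldo-keto reductase of the vas deferens, was lower with 41.2, 38.6 and 28 CPM in cauda, against 157, 160.3 and 146 CPM in corpus (log2 change -2.10 ± 0.12 SE, adjusted p = 1.91e-08), so its sign was opposite to that of the Svs genes. Whether tissue or secretion from beyond the cauda entered these libraries was not tested.

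To set epithelial changes beside muscle and sperm content, the fit was repeated with the mean log2 CPM of the smooth muscle list, or of the sperm list, as a covariate. Since the smooth muscle list does not overlap between the segments, this covariate runs close to the comparison itself, and with it the median SE grew 2.59 times. The calls were then 497 higher and 607 lower, of which 481 and 594 were calls of the same sign without it. The estimates moved too, and 363 of the called genes changed sign. The median log2 change of the smooth muscle list was 0.0661 with this covariate, against 2.24 without it, that of the fibroblast list -0.971, against 0.507, and that of the sperm list 0.908, against 0.65. What a call lost in this fit comes from was not tested. With the sperm covariate the SE grew 1.99 times, 978 were higher and 1085 lower, and 38 called genes changed sign. Smooth muscle genes kept 2 of their 30 calls with the muscle covariate, fibroblast genes 1 of 9 and sperm genes 1 of 19. With the sperm covariate smooth muscle genes kept 21 of 30 calls and sperm genes none of 19. A list that serves as the covariate loses its own change by construction. The losses of the muscle and sperm lists under their own covariates are therefore not a result. Among secreted families with the muscle covariate, the Kazal and WAP inhibitors kept 11 of 12 higher calls and 1 of 8 lower calls, beta-defensins 6 of 9 and 11 of 12, and sperm coating genes 10 of 12 and 8 of 11. Serpins kept 4 of 6 higher calls, lipocalins 2 of 4, and transporters 4 of 12 higher and 6 of 10 lower calls. Other epithelial lists differed in how many higher calls they kept. Clear cell genes kept none of 6, steroid handling genes none of 3, and Hox genes and epithelial transcription factors 2 of 8 each. Secretory pathway genes kept 4 of 14 and cholesterol synthesis genes 4 of 11. Tight junction and adhesion genes kept 4 of 5, pan-epithelial genes 4 of 6, antioxidant and conjugation enzymes 8 of 16 and host defence genes 4 of 8. The median log2 change of the transcription factors was 0.0248 with the muscle covariate, against 0.526 without it. Spink5 had a log2 change of 4.37 with the muscle covariate and 5.08 with the sperm covariate, against 5.08 without either. Defb22 had -6.56 and -5.71, against -6.21. Npc2 had -1.46 and -2.34, against -2.20. Acta2 had -0.30 with the muscle covariate, against 2.11 without it, and Prm2 had 0.22 with the sperm covariate, against 1.21. Acta2 and Prm2 each belong to the list used as that covariate.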

How the data were processed

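RNA was sequenced from whole cauda, corpus and caput of the mouse epididymis, 3 libraries each, as single reads of 36 bases from a stranded mRNA kit, per the labels' protocols. Per the submitters' processing notes, the build was mm10 and the tools included Bowtie2 2.2.0, CASAVA 1.8.2 and FastQC 0.11.2. How reads were counted, on which annotation and strand, and what was done with multiply matched reads is not stated. The deposited table holds raw counts per gene, and the authors also deposited RPKM values per gene, per the file headers. Here counts gave every test and RPKM only levels compared between genes.

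Genes passed edgeR's expression filter, libraries were scaled by TMM, and all 9 libraries were fitted with 1 mean per segment in edgeR 4.0.16 under R 4.3.3. The quasi-likelihood test compared cauda with corpus, and p-values were adjusted by the Benjamini-Hochberg method over all 14168 tested genes, and the SE is the log2 change over the square root of its F value. CPM were computed on TMM-scaled totals. Annotated symbols matched 22639 of the 24059 genes directly and 962 by an older name, with coordinates of GENCODE M21 in GRCm38. Fold bounds for genes at 0 in 1 segment used 3 counts over that segment, and counting intervals cover counting error only. Alternatives were DESeq2 1.42.0, other scalings and filters, the 6 libraries alone, the replicate number as a block, muscle or sperm covariates, and each library left out. On simulated data of the same size (13908 genes tested), 50 of 50 genes raised by 2 on the log2 scale were called, 44 of 50 raised by 1, and 12 of 13711 unchanged genes. The simulation gave every gene the same dispersion and changed 200 genes, whereas 5552 genes were called in the data. Its rates therefore need not hold for these data.

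The 35 gene lists and the members were chosen with earlier results of these data known. Named genes were the 12 widest changes per direction without overlap and with at least 20 CPM, the 8 highest levels per segment, in each list the 2 highest and 2 widest called genes per direction with at least 2 CPM, and 16 fixed genes. Others named, among them Fhl1, Myocd, Pln, Pecam1, Akap4, Foxj1, Prm3, Hoxa11, Hoxd10, Hoxc9 and members of the gene clusters, were chosen as examples after their values were seen. A gene that the rule named is not reported here.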

Additional observations from a re-analysis of the deposited data

How the results depend on the processing

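The counts of 2661 genes higher and 2891 lower stayed within 1.5 times under DESeq2 (2331 and 2243), totals without TMM (2310 and 3357), no filter, the 6 libraries alone, robust dispersion and removal of Rn45s. Leaving out 1 library gave 2330 to 2666 higher and 2434 to 2596 lower genes, and 957 to 1244 (the most without corpus replicate 2) and 902 to 923 genes at 2-fold or more. Scaling on the pan-epithelial list gave 4307 and 1724. The smooth muscle covariate gave 497 and 607, with 386 and 509 at 2-fold or more, and the sperm covariate 978 and 1085, with SE wider by 2.59 and 1.99 times. They turned the sign of 363 and 38 called genes. Among genes followed singly, the smooth muscle covariate turned that of Acta2 (-0.299), Ctgf (-0.943), Cuzd1 (0.254), Dcn (-0.458), Fabp4 (1.88), Hspa1a (0.598), Hspa1b (0.560), Hspa5 (0.181), Spem1 (-0.0192) and Wfdc16 (0.0817), and the sperm covariate that of Smcp (-0.0188), none of them past the test there. Acta2 and Smcp each belong to the list used as the covariate there. The cause of the other moves was not tested.

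Cauda and corpus carry the same replicate numbers. Deviations from the segment mean correlated at 0.075, -0.045 and 0.183 between same-numbered libraries, and at -0.227 to 0.174 between libraries of different number. The labels do not say whether same-numbered libraries share a mouse, and these correlations cannot decide it. With the replicate block, 2872 genes were higher and 3074 lower, 1057 and 927 of them at 2-fold or more, and 14 fibroblast genes were higher, against 9 without it.

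Below 1 CPM 6.59% of tested genes were called, and the part of depth in this was not tested.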
